A study of Mus musculus with 28 samples.

Results

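The cytosolic ribosomal protein genes were taken from the expression table by symbol: Rpl or Rps followed by a digit, the stalk genes Rplp0, Rplp1 and Rplp2, and Rpsa, without pseudogene symbols and the Rps6k kinases. Of 25124 genes in the table, 89 matched, 54 named for the large subunit and 35 for the small subunit. The symbol rule also takes in Rps19bp1 and Rpl7l1, whose products act in ribosome assembly, and the retrocopies Rpl37rt, Rpl32l and Rps27rt. It leaves out, among others, Fau, which makes a ribosomal protein fused to a ubiquitin-like moiety, and Rack1, a scaffold on the small subunit. A total of 87 members reached 1 TPM (the standard unit for a transcript's share of a library after division by gene length) in at least 6 libraries and were tested. Rpl10l and Rpl3l, paralogues known from testis and striated muscle, did not. Rpl10l was listed at 0 in every library.

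Helper T cells were taken by sorting from lamina propria of the small intestine of T-bet-ZsGreen mice, as live cells carrying CD4, TCRb, CD90.2 and CD45. The mice carry a fluorescent reporter of the transcription factor T-bet. Mice had a specific-pathogen-free flora (SPF) or were germ-free (GF), and received aCD3, an antibody to the CD3 chains of the antigen receptor, or its isotype control. SPF mice gave 6 libraries with isotype and 6 with aCD3, each from 3 females and 3 males. GF mice gave 10 with isotype, from 5 of each sex, and 6 with aCD3, from 1 female and 5 males. Every group carries the reporter. Ages were not given in the sources used here, and nothing in them says that each library came from a separate animal, so p-values measure the spread between these samples. In such bulk samples, fewer cells of a type and less RNA per cell cannot be told apart.

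A ribosome holds a single copy of most of its proteins, and cells make the proteins of both subunits in matched amounts. Their mRNAs begin with a run of pyrimidines, the terminal oligopyrimidine (TOP) motif, through which mTOR signalling and the RNA-binding protein Larp1 control how strongly they are translated. T cells that engage their antigen receptor enlarge, divide and raise ribosome production, so that mRNA level and translation need not move together. The libraries measure RNA only.

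Short stretches around the transcription start show what these genes share and where they differ. Shown are the members with the strongest rise and fall, relative to the median member, after aCD3 in SPF mice, from RefSeq (GRCm38.p6), 20 bases before the start and the first 10 bases of the transcript, with the unbroken run of C and T over the start in capitals. Rps27rt, second lowest, shares the place of Rps27 in the table and is not shown separately. Rps13, next lowest, is shown in its place.
Rps27l, chr9:66946393-66946422, plus strand: agctcaccatgggcttcagggtcactaacg
Rps2, chr17:24720043-24720072, plus strand: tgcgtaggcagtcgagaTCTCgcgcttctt
Rps27, chr3:90213639-90213668, minus strand: acaggatttccgctttcgCTCCTTTCCggc
Rps13, chr7:116334181-116334210, minus strand: cgcgcgagagcaaacgtcggTgagtggcgt
Rps27 has a run of 9 pyrimidines, Rps2 one of 4, Rps13 a single T, and Rps27l none at the annotated start. An annotated start can lie some bases from the one used in these cells. RefSeq promoters of 300 bases, 250 before the start and 50 after, matched 67 of the 89 members. A run of at least 5 pyrimidines covered the annotated start in 26.9% of them, against 10.1% of all 32817 promoters. The letters CCGGAAG, read on both strands, stood in 35.8% of member promoters and 8.86% of all, GGGCGG in 58.2% and 35.6%, and AAGATGG in 13.4% and 6.34%. A match is a description and not a site of binding.

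Depth was 6765531 to 17860591 reads in genes per library, recovered from the TPM values. The sorted cells carried their defining transcripts: the 9 CD4+ T cell markers summed to 1845 to 2474 TPM in all 28 libraries, and Cd4 was at 166 to 275 TPM. Markers of other cells were also found. B and plasma cell markers, 9 genes, summed to 97.9 to 278 TPM in SPF isotype and 3.89 to 13.6 TPM in SPF aCD3, and the 8 stromal markers to 5.06 to 45.8 TPM and 0.764 to 2.83 TPM. Most of the B and plasma sum in SPF isotype was Jchain, the joining chain of antibodies, at up to 259 TPM. Ms4a1, which defines B cells, was at 0 in at least 14 libraries. In GF isotype and GF aCD3 the B and plasma sums were 11.8 to 121 TPM and 9.73 to 104 TPM. The stromal sums there were 0.645 to 3.36 TPM and 0.549 to 3.52 TPM. The 6 erythroid markers summed to 2.29 to 10.2 TPM in SPF isotype and 0.716 to 1.28 TPM in SPF aCD3. In GF isotype and GF aCD3 they summed to 1.05 to 2.69 TPM and 1.06 to 2.08 TPM. The 7 myeloid markers summed to 45.5 to 91.8 TPM over all libraries. Most of that sum was Cst3, at 43.8 to 83.6 TPM. Every other myeloid marker had a median of at most 4.05 TPM (Fcer1g), with Lyz2 at 0.234 TPM and Csf1r at 0.154 TPM. The 2 CD8 markers reached 61.2 TPM in GF isotype and at most 23.8 TPM elsewhere, and the 8 epithelial markers 44.0 TPM, also in GF isotype. The part of these cells in the differences below was not tested. SPF libraries, and the GF libraries in 2 sets, carry separate blocks of sample numbers in the column names, so colonisation and whatever these number blocks stand for cannot be told apart.

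Ribosomal protein transcripts made up 3.91% to 6.02% of summed TPM across the 28 libraries. In SPF mice the share was 5.25% ± 0.415 (SD, n = 6) with isotype and 4.70% ± 0.453 (n = 6) with aCD3. In GF mice it was 5.25% ± 0.318 (n = 10) and 5.14% ± 0.473 (n = 6). The groups overlapped, and SPF aCD3 held the lowest library. As a share of recovered reads, which are not divided by length, the order of the SPF groups turned round: 1.66% ± 0.137 in SPF isotype and 2.05% ± 0.145 in SPF aCD3, with no overlap (1.46% to 1.81% against 1.84% to 2.22%). Histone genes, 91 rows that are short and so weigh heavily in TPM, took 5.45% ± 1.09 of TPM in SPF isotype and 25.5% ± 1.34 after aCD3. In GF mice they took 6.80% ± 1.84 and 15.5% ± 9.75. The part of the histone share in the differences below was not tested beyond the scalings given. With histone genes and the ribosomal RNA precursor Rn45s left out of the total, the ribosomal protein share was 6.67% ± 0.587 in SPF isotype and 7.67% ± 0.694 in SPF aCD3.

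**Figure D1:**
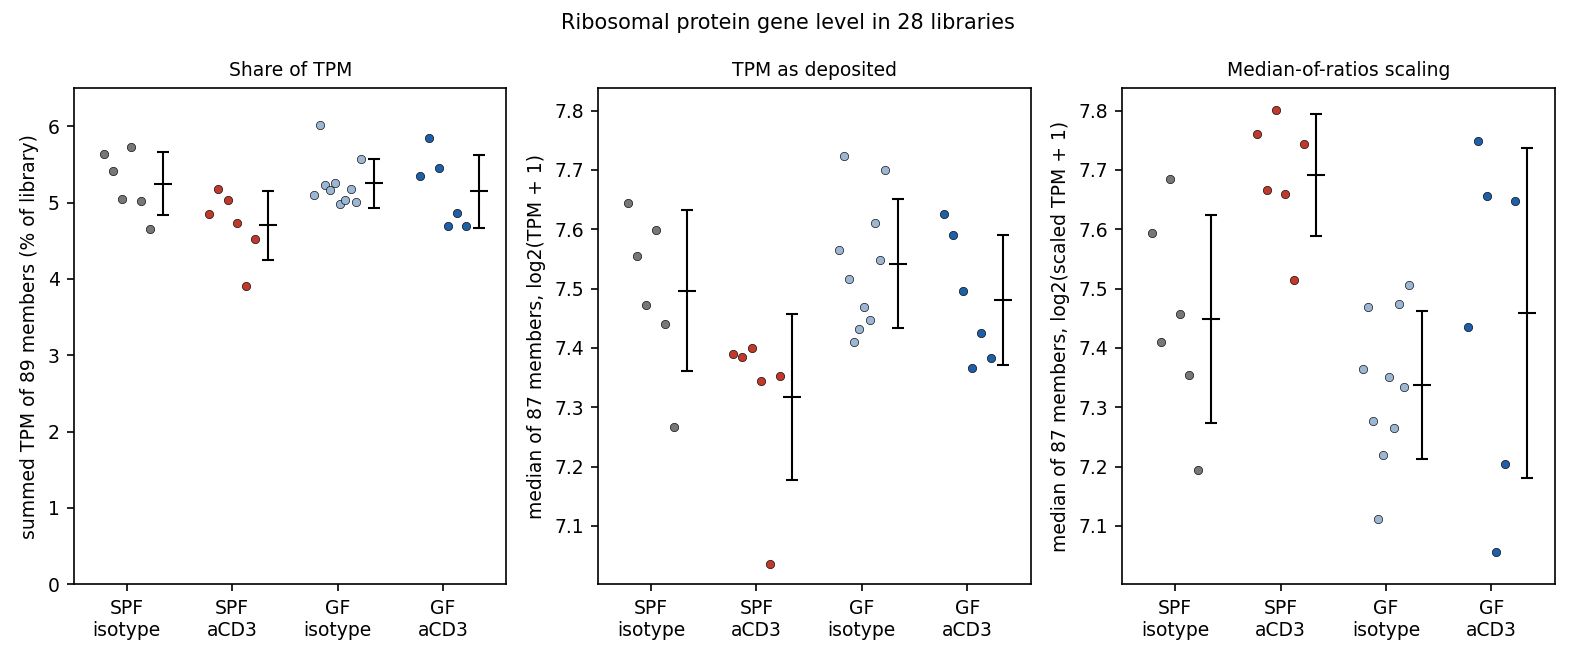
Ribosomal protein gene level in each of the 28 libraries by group: the summed TPM of the 89 members as percent of the library, and the median over 87 tested members on the log2 scale, with TPM as deposited and after median-of-ratios scaling. Points are libraries, bars the mean ± SD of 6, 6, 10 and 6 libraries. SPF aCD3 sits lowest of the 4 groups in TPM (mean 7.32) and highest after scaling (7.69).

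The members spanned from 0 to 3166 TPM on average. These TPM values divide by the whole gene with its introns. Over 88 members, the exonic share of the gene span and the log2 mean TPM had a Pearson's r of 0.017 and a Spearman's rho of -0.0076, as a description across genes that share libraries. The highest large subunit members were Rplp1, an acidic protein of the stalk that recruits elongation factors (3166 TPM), Rpl41, a very short basic peptide (1800 TPM), and Rpl4 (1391 TPM). Among the highest of the small subunit were Rps15 (1647 TPM) and Rps9 (1088 TPM). Rpl27 (18.7 TPM), Rpl11 (20.6 TPM) and Rpl5 (30.5 TPM) stood low, although each protein is a constant part of the ribosome.

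In every library the median over the 52 tested large members was below that over the 35 small members, on the log2(TPM + 1) scale. In SPF mice large minus small was -0.63 ± 0.17 (SD, n = 6) with isotype and -0.68 ± 0.14 (n = 6) with aCD3, and in GF mice -0.68 ± 0.18 (n = 10) and -0.72 ± 0.20 (n = 6). The 4 ranges overlapped. With means in place of medians the order of the SPF groups turned round, at -0.62 ± 0.08 with isotype and -0.53 ± 0.04 with aCD3, and the ranges overlapped only between -0.579 and -0.569. So the direction of the aCD3 difference between subunits depended on the summary used. Counting reads per coding length in place of the gene span widened the gap, to -1.09 ± 0.14, -1.23 ± 0.15, -0.99 ± 0.07 and -1.14 ± 0.20 in the same order. Summed over members, the large subunit held 56.0% ± 1.18 of ribosomal protein TPM in SPF isotype and 57.1% ± 0.399 after aCD3, and 56.1% ± 0.895 and 56.2% ± 0.738 in GF mice. So the sum leaned to the large subunit, which has more members.

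Not all rows count separate molecules. Rps27 (chr3:90212667-90213648, mm10) and Rps27rt overlap over almost their whole spans on the same strand and correlated at Pearson's r = 0.999 over the 28 libraries, so they count as 1 place. Rows without protein named for the same genes also took reads: the pseudogene Rpl14-ps1 averaged 2043 TPM against 444 TPM for Rpl14, and Rplp2-ps1 1875 TPM against 273 TPM for Rplp2. By reads, these pseudogenes held 50.4% and 60.3% of the sum with their parent. How the authors' counting treated reads that match several places was not given in the sources used here. Over the 86 members with an annotated coding transcript, 71 had at least 1 stretch of 150 bases, the read length, that stands identically in a transcript of another gene, and 15 had none.

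In SPF mice, aCD3 split the ribosomal protein genes. Rps27l, an inducible paralogue of Rps27 and a known p53 target, rose, as did the small subunit genes Rps2, Rps26 and Rpsa. Rps27 itself, Rps13, Rpl38, Rpl24 and Rps12 fell. With TPM as deposited, 8 of 87 members rose and 43 fell (limma, adjusted p under 0.05), against 14.2% and 50.7% of all 12182 tested genes. As shares of the members these were 9.20% and 49.4%, so the share lower was near that of all genes. The 43 lower members stand at 42 separate places.

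**Figure D2:**
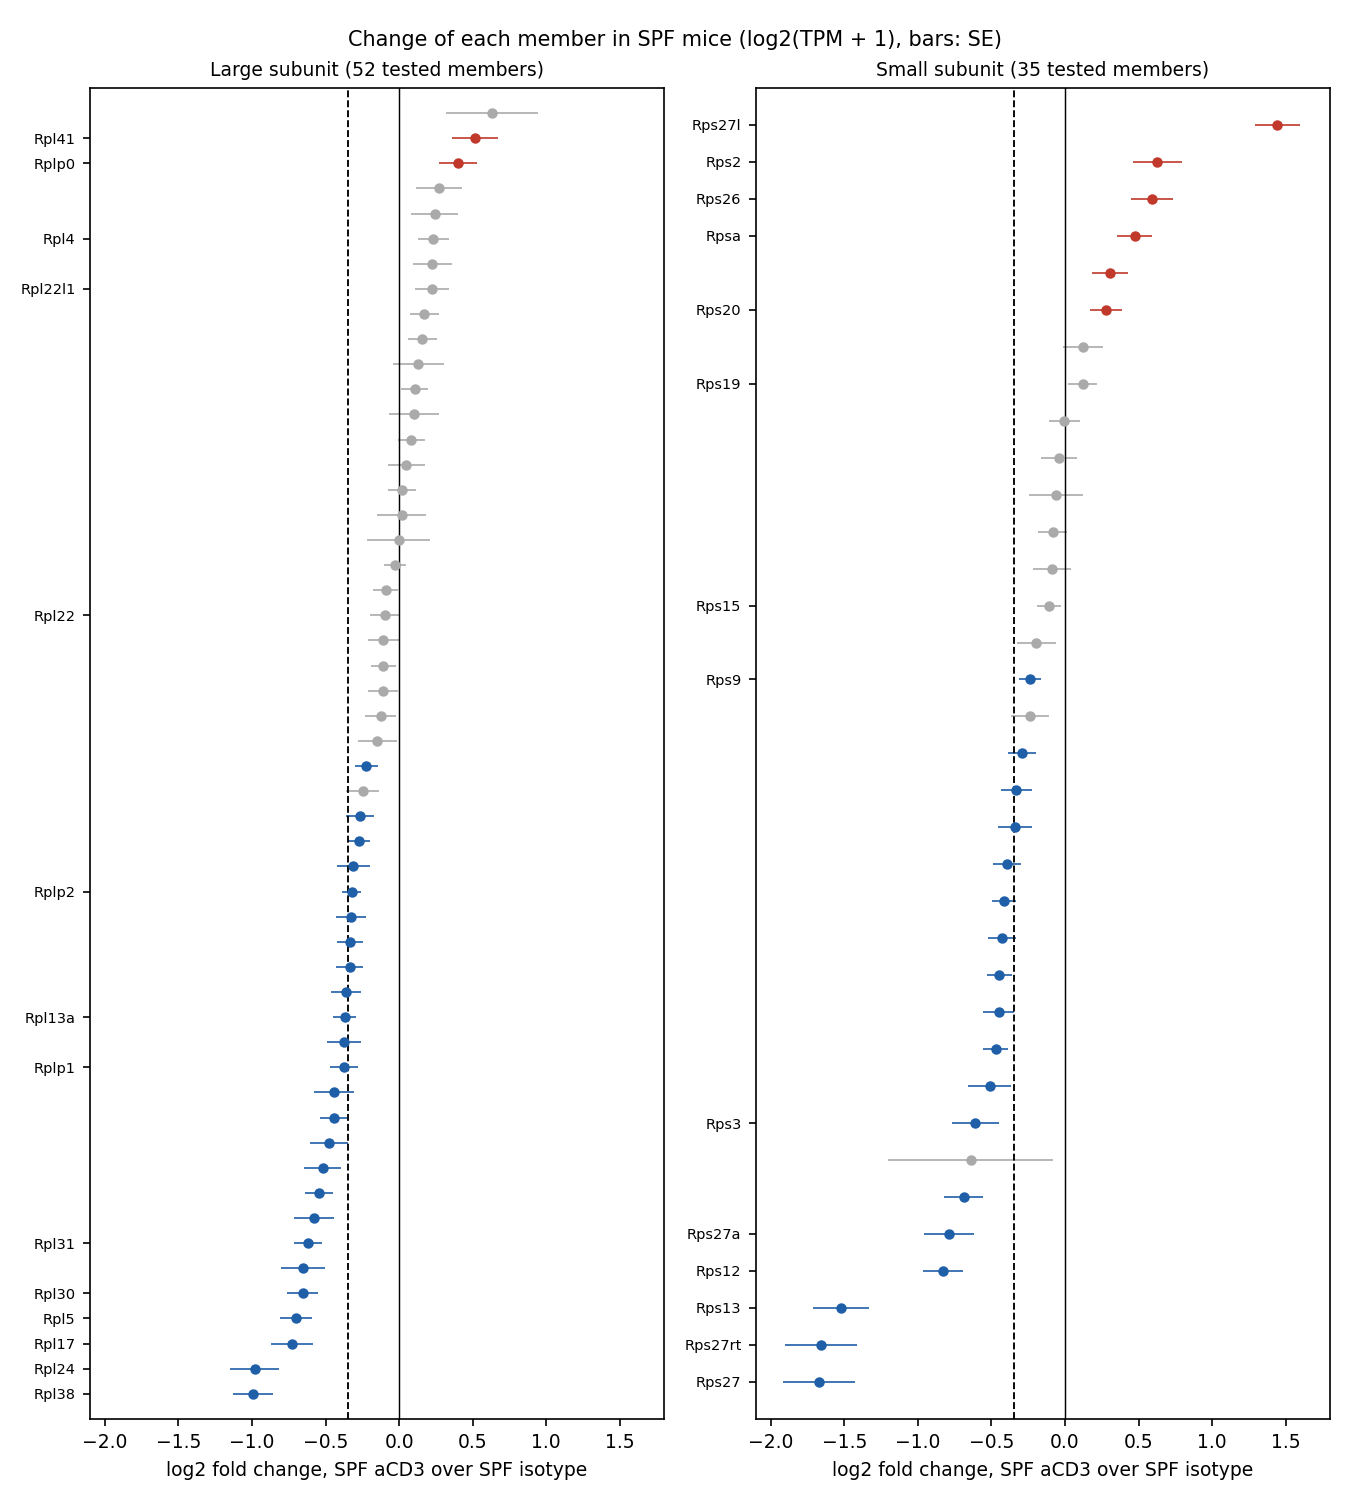
Log2 fold change of each of the 87 tested members, SPF aCD3 over SPF isotype (n = 6 each), on the log2(TPM + 1) scale, for 52 large and 35 small subunit genes; bars are standard errors. Only some members described in the text are named on the axis. Red points are higher and blue lower at an adjusted p under 0.05 (limma), grey ones not called; the dashed line is the median of all tested genes, -0.35. Rps27l stands apart at the top, and Rps27, Rps27rt and Rps13 at the bottom.

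The direction of the group as a whole depended on the scaling. The median member changed by -0.24 with TPM as deposited, while the median of all tested genes changed by -0.35. After median-of-ratios scaling, which sets the typical gene near 0, the median member changed by 0.18, with 36 members higher and 11 lower, against 30.6% and 29.3% of all tested genes. TPM without histone genes and Rn45s gave 30 higher and 11 lower, against 27% and 31.6% of all genes. Quantile normalization gave 5 higher and 41 lower, against 26.9% and 31.9%. Relative to the median of all genes, the median member stood higher by 0.11 with TPM, higher by 0.19 with median-of-ratios scaling and lower by -0.18 under quantile normalization. No member was called in opposite directions by TPM and any of 5 other scalings. Those other scalings were not compared with each other in this way.

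Both subunits held members of either direction. With TPM, 2 of 52 large members rose and 25 fell, with a median of -0.19, and 6 of 35 small members rose and 18 fell, with a median of -0.29. The shares lower, 48.1% and 51.4%, were near the 50.7% of all genes, and the shares higher were 3.85% and 17.1%, against 14.2%. The range was wider in the small subunit, from -1.67 to 1.44, against -0.99 to 0.63 in the large subunit. The upper end of the latter is Rpl39l, which stayed at or below 2.14 TPM and was not called, and the highest called large member was Rpl41, at 0.52. Scaled to the median member, 20 members rose (12 large and 8 small) and 26 fell (13 large and 13 small), against 18.5% and 36.1% of all genes.

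Rps27l ran from 23.0 to 32.8 TPM in SPF isotype (median 29.4) and from 67.4 to 101 TPM in SPF aCD3 (median 80.2). The groups did not overlap, and the log2 fold change was 1.44 ± 0.15 (SE; limma, adjusted p = 4.88e-07). Rps27 moved the other way: 193 to 303 TPM in SPF isotype (median 249) and 51.4 to 91.8 TPM in SPF aCD3 (median 80.9). Every aCD3 library lay below every isotype library, with a log2 fold change of -1.67 ± 0.25 (limma, adjusted p = 7.90e-06). Rps27 encodes a zinc finger protein of the small subunit, and Rps27rt at the same place gave -1.66 ± 0.24. Rps27l and Rps27 thus reached like levels per gene span in SPF aCD3, having differed several-fold in SPF isotype.

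Rps13, a protein of the small subunit, ran from 44.1 to 82.4 TPM in SPF isotype (median 61.5) and from 14 to 29.8 TPM in SPF aCD3 (median 20.7). The groups did not overlap, and the log2 fold change was -1.52 ± 0.19 (limma, adjusted p = 2.02e-06). Rpl38, known for a role in translating homeobox mRNAs, ran from 35.5 to 44.5 TPM (median 38.6) and from 14.6 to 21.7 TPM (median 19.9), a change of -0.99 ± 0.13 (limma, adjusted p = 3.99e-06). Rpl24, a protein at the subunit interface, ran from 31.5 to 54.7 TPM and from 16.1 to 27.1 TPM, a change of -0.98 ± 0.16. Rps12 ran from 72.5 to 110 TPM and from 41.6 to 59.6 TPM, a change of -0.83 ± 0.14. In each of these genes all aCD3 libraries were below all isotype libraries.

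Rps2, a protein at the mRNA entry site, ran from 737 to 1096 TPM in SPF isotype (median 879) and from 1116 to 1783 TPM in SPF aCD3 (median 1369). The groups did not overlap, with a log2 fold change of 0.63 ± 0.17 (limma, adjusted p = 0.00218). Rps26, which lies at the mRNA exit, ran from 548 to 746 TPM and from 836 to 1173 TPM, also without overlap, and changed by 0.59 ± 0.14 (limma, adjusted p = 8.76e-04). Rpsa, also known as the laminin receptor, ran from 764 to 946 TPM and from 1042 to 1365 TPM, a change of 0.47 ± 0.12. Rpl41 overlapped, 1090 to 1719 TPM against 1429 to 2592 TPM, and changed by 0.52 ± 0.16 (limma, adjusted p = 0.00579), a direction that turned to -0.10 under quantile normalization. Rplp0, the base of the stalk, changed by 0.40 ± 0.13 and Rps20 by 0.28 ± 0.11.

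The 6 members whose SPF groups did not overlap upward compare with 8.57% of all tested genes, and the 22 that did not overlap downward with 33.4%. Calls that were made in the same direction by TPM, median-of-ratios scaling, voom on the recovered reads, quantile normalization, TPM without histone genes and Rn45s, and scaling to the median member included Rps27l upward and covered 9 members downward: Rpl17, Rpl24, Rpl30, Rpl38, Rpl5, Rps12, Rps13, Rps27 and Rps27rt. Rps2, Rps26, Rpl41, Rplp0, Rps20 and Rpsa were called higher by all of these but quantile normalization. The share of all tested genes called in every one of these fits was not counted, so the members cannot be set against it.

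**Figure D3:**
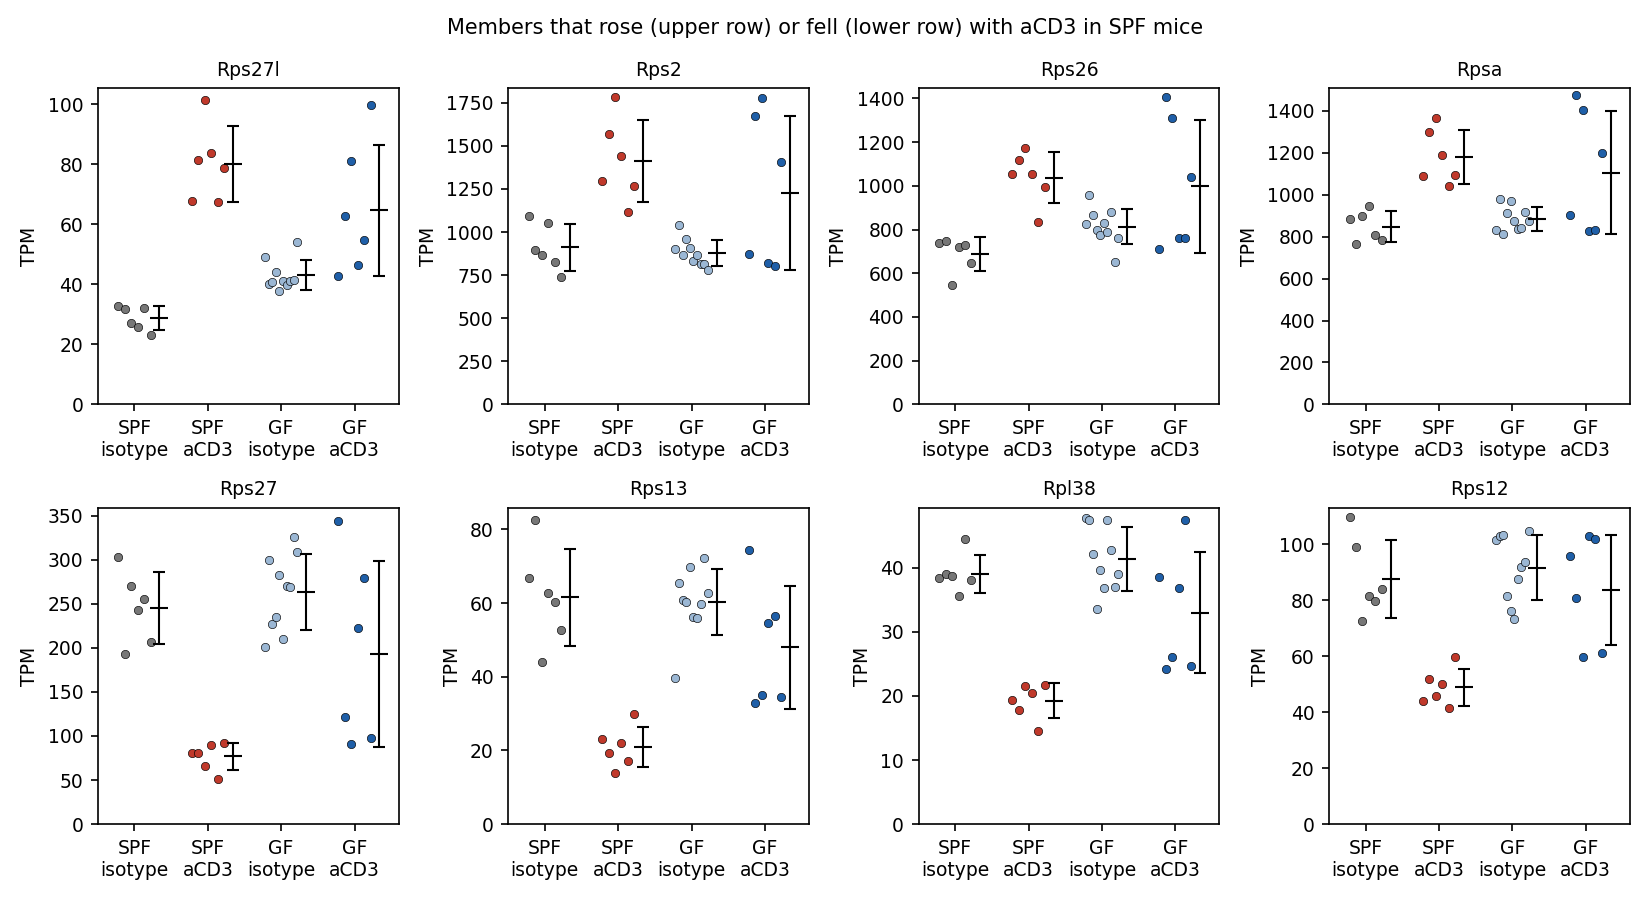
TPM in each library for 4 members that rose and 4 that fell with aCD3 in SPF mice; points are libraries, bars the mean ± SD of 6, 6, 10 and 6 libraries. SPF aCD3 lies apart from SPF isotype in all 8 genes, and the 6 GF aCD3 libraries are spread widely, as in Rps27, from 90.7 to 344 TPM.

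Members differed in how much sequence they share with other genes. Over 84 tested members, the share of 150-base windows found in another gene and the change in SPF mice had a Pearson's r of -0.43 and a Spearman's rho of -0.33, as a description across genes that share libraries, depth and length scaling. Of 13 members with no shared window, 1 rose and 4 fell, of 48 with some but at most 50% shared, 7 rose and 23 fell, and of 23 with over 50% shared, none rose and 15 fell. Of all tested genes 14.2% rose and 50.7% fell, so the middle set was close to that share downward. Mean levels followed the same order, with medians of 731, 253 and 86.9 TPM. In Rps27, 98.0% of windows stood in another gene, in Rps13 75.0%, in Rps12 80.7%, in Rpl38 32.7% and in Rps27l 0%. Rps27rt counted as another gene here. The annotation used for the windows held no exons of Rps27rt at its place in the expression table. Rps2, which rose, shared 49.8% of its windows with transcripts of 22 other genes. The part of ambiguous reads in these changes was not tested.

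Rps3, a small subunit protein at the mRNA entry site, shows what lies inside a gene span. Its intron holds the small nucleolar RNA gene Snord15b (chr7:99479563-99479707, mm10), whose reads made up 42.7% to 60.5% of the reads of Rps3 in SPF isotype (median 53.3%) and 19.2% to 40.1% in SPF aCD3 (median 27.6%). As deposited, Rps3 ran from 1050 to 1510 TPM in SPF isotype and from 734 to 948 TPM in SPF aCD3, without overlap, a log2 fold change of -0.61 ± 0.16 (limma, adjusted p = 0.00192). With the reads of nested small RNA genes subtracted, Rps3 stood at 566 ± 33.7 TPM (SD, n = 6) in SPF isotype and 564 ± 33.3 TPM (n = 6) in SPF aCD3, and the change was -0.01 ± 0.09 (limma, adjusted p = 0.959). Among 37 small RNA genes nested in 24 members, Snord15b had by far the highest median share of its host's reads over the 28 libraries, 42.2%. The next, Mir5121 in Rpl13a, had a median of 4.50% and was at 5.35% at its highest, and Snora70 in Rpl10 reached 6.62% in its highest library.

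**Figure D4:**
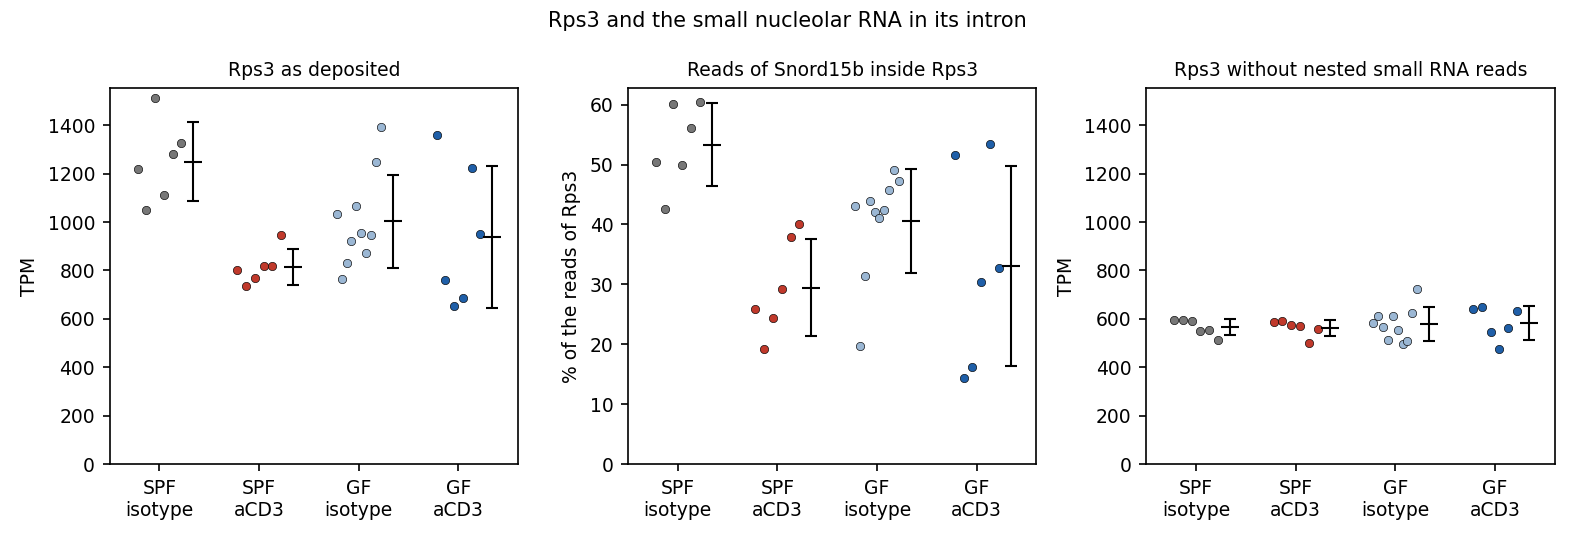
Rps3 as deposited, the reads of Snord15b as percent of the reads of Rps3, and Rps3 after subtraction of nested small RNA reads, in each library; bars are the mean ± SD of 6, 6, 10 and 6 libraries. The gap between the SPF groups in the left panel is absent from the right panel, where all 4 group means lie between 564 and 584 TPM.

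In germ-free mice the same treatment gave 1 call. Rps27l rose and no member fell (limma, adjusted p under 0.05), 1 of 87 against 2.46% of all tested genes higher and 4.61% lower. After median-of-ratios scaling 2 members were called, against 9.73% of all genes. All 87 members overlapped between the groups, while 0.0328% of all genes did not overlap in each direction. With TPM the median member stood near 0 and the median of all tested genes by -0.15. Rps27l ran from 37.8 to 54.2 TPM in GF isotype (median 41.1) and from 42.9 to 99.6 TPM in GF aCD3 (median 58.8), and the groups overlapped. Its log2 fold change was 0.51 ± 0.14 (limma, adjusted p = 0.0481). The call was lost in 25 of 28 fits that left out a single library, though the log2 fold change never fell below 0.38, and it was lost in both sets of GF libraries taken alone (0.59 and 0.41).

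The GF aCD3 libraries differed widely among themselves. Rps27 was at 344 TPM in replicate F1, 279 TPM in M4, 223 TPM in M3, 122 TPM in M1, 97.3 TPM in M5 and 90.7 TPM in M2. Rps27l was at 42.9, 54.8, 46.3, 62.8, 99.6 and 81.1 TPM in the same order of libraries. The 3 libraries lowest in Rps27 were the 3 highest in Rps27l, and both sets of GF libraries held some of them. Histone genes took 5.60%, 6.64%, 7.71%, 23.6%, 26.1% and 23.2% of TPM in that order of libraries, so the same 3 stood highest, and the part of this share was not tested. Without replicate F1, 18 members were called, 20.7% of those tested against 29.8% of all genes. Without M4 it was 14, or 16.1% against 31.7%, and without M3 13, or 14.9% against 34.6%. Leaving out any of the other 25 libraries gave none, where 0% of all genes were called as well. Among the other members with the strongest changes, Rpl41 gave 0.46 ± 0.14, Rps2 0.44 ± 0.16, Rpl17 -0.36 ± 0.13, Rpl24 -0.38 ± 0.15, Rps27 -0.58 ± 0.23 and Rps27rt -0.58 ± 0.23, with adjusted p-values (limma) from 0.0514 for Rpl41 to 0.0864 for Rpl24.

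Without aCD3, few members were called between GF and SPF mice. In GF isotype against SPF isotype 3 members were higher and 2 lower (limma, adjusted p under 0.05), against 6.42% and 0.755% of all tested genes. Rps27l was higher by 0.57 ± 0.14 (limma, adjusted p = 0.0152), and its groups did not overlap, 37.8 to 54.2 TPM in GF against 23.0 to 32.8 TPM in SPF. It was the 1 member without overlap, against 2.39% of all genes higher and 0.238% lower. Rpl27 was higher by 0.48 ± 0.14 and Rpl7l1 by 0.29 ± 0.08. The stalk gene Rplp2 was lower by -0.24 ± 0.06 and Rpl13a, known for a part in silencing inflammatory mRNAs, by -0.23 ± 0.07. After median-of-ratios scaling Rplp2 and Rpl13a were called, against 1.63% of all genes, and no member was after scaling to the median member, against 0.977%. The calls of Rps27l, Rpl27 and Rpl7l1 were also lost with voom and with quantile normalization, and that of Rpl13a with the latter. Rpl27 lost its call in 14 of the 28 fits that left out a library, and Rps27l in none. The count was 1 without SPF isotype replicate F3, against 2.67% of all genes. It was 3 without SPF isotype replicate F1 or any of GF isotype replicates F3, F4, F5, M1 and M4, against 4.67% to 6.45%. Other members at the ends of the range were not called: Rpl13 (0.31 ± 0.15), Rpl10a (0.32 ± 0.15), Rps19 (-0.26 ± 0.09), Rpl32l (-0.25 ± 0.19), Rps4l (-1.03 ± 0.50) and Rps3 (-0.33 ± 0.14), the last of which became 0.03 with nested small RNA reads subtracted.

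Under aCD3, Rps27, Rps13 and Rps27a were higher in GF than in SPF mice, and Rpl4 and Rps19 lower. With TPM, 35 members were higher and 4 lower in GF aCD3 than in SPF aCD3 (limma, adjusted p under 0.05), against 48.9% and 4.46% of all tested genes. This comparison shares the SPF aCD3 libraries with the SPF comparison. After median-of-ratios scaling the split turned to 8 higher and 25 lower, against 15.8% and 16.9% of all genes. Scaled to the median member it was 17 higher and 10 lower, against 19.2% and 6.79%. The TPM of 11 members lay wholly above and of 1, Rps15, wholly below that of SPF libraries, against 12.2% and 0.78% of all genes. The median member was at 0.21 with TPM and -0.20 after median-of-ratios scaling. Rps27 (51.4 to 91.8 TPM in SPF, 90.7 to 344 TPM in GF) was higher by 1.20 ± 0.25 (limma, adjusted p = 9.15e-04), Rps13 by 1.14 ± 0.20 and Rps27a, a fusion with ubiquitin, by 1.04 ± 0.17. Rpl4 was lower by -0.36 ± 0.11, Rps19 by -0.34 ± 0.10 and Rps20 by -0.30 ± 0.11, and Rps27l gave -0.37 ± 0.16 (limma, adjusted p = 0.0536). After median-of-ratios scaling Rps27l was called lower. Calls shared by all 6 scalings were Rpl24, Rpl38, Rps12, Rps13, Rps27, Rps27a and Rps27rt upward and Rps19 downward. The share of all tested genes called under all 6 was not counted here either. Rpl4 turned to 0.01 under quantile normalization. None of the 4 lower calls, Rps19 included, held with array weights (24 higher and 0 lower, against 28.6% and 1.63% of all genes) or in a fit to the groups compared alone (32 higher and 0 lower, against 35.2% and 2.44%).

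The difference between the aCD3 effects of GF and SPF mice was tested directly. It was positive for 6 members and negative for 1 (limma, adjusted p under 0.05), against 2.44% and 1.04% of all tested genes. Rps13 gave 1.16 ± 0.26 (limma, adjusted p = 0.0231), its SPF effect of -1.52 standing beside a GF effect of -0.36. Rps27l gave -0.93 ± 0.21 (limma, adjusted p = 0.0231), from 1.44 in SPF and 0.51 in GF. After median-of-ratios scaling 4 members differed, against 11.7% of all genes, and scaled to the median member 3, against 1.8%. The others were Rps27a (0.84 ± 0.23), Rps12 (0.70 ± 0.18), Rpl38 (0.66 ± 0.18), Rpl5, a partner of Rpl11 in binding the p53 regulator Mdm2 (0.56 ± 0.15), and Rpl31 (0.51 ± 0.13). Rps13 and Rps27l were called under all 6 scalings, and the share of all tested genes so called was not counted. Both calls were lost without GF aCD3 replicate F1. The differences were then 0.97 for Rps13 (limma, adjusted p = 0.0785) and -0.79 for Rps27l (limma, adjusted p = 0.0798). With array weights Rps13 gave 0.95 and lost its call (limma, adjusted p = 0.0642), and Rps27l gave -0.82 and kept it (limma, adjusted p = 0.0401). The count of members fell to 0 without replicate F1, against 0.263% of all genes. It rose to 27, 17 and 13 without GF aCD3 replicates M5, M2 and M1, or 31%, 19.5% and 14.9% of members against 26.2%, 20.4% and 16.8% of all genes. Without SPF isotype replicate F3 it was 19, or 21.8% against 17%. Leaving out each other library in turn gave 2 to 7 members, against 0.796% to 3.49% of all genes, and the fit with a replicate block gave 2, against 1.33%.

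The ratio of a paralogue to its parent was taken within each library, as the difference of log2(TPM + 1), so the scale of a library enters through the added 1 where a gene is near 0, as Rpl39l and Rps4l are. Of 8 pairs, 6 had both genes tested, and 24 differences in ratio were tested with a two-sided exact permutation test. The log2 ratio of Rps27l to Rps27 was -3.04 ± 0.25 (SD, n = 6) in SPF isotype and 0.07 ± 0.35 (n = 6) after aCD3. In GF mice it was -2.58 ± 0.29 (n = 10) and -1.44 ± 1.25 (n = 6). It rose by 3.11 with aCD3 in SPF mice, with all 6 aCD3 libraries above all isotype libraries (exact permutation, p = 0.0022, the smallest this design can give, adjusted p = 0.013). In GF mice it rose by 1.14 (exact permutation, adjusted p = 0.046) with ranges that overlapped, from -2.94 to -2.01 in isotype and from -2.98 to 0.03 in aCD3. The permutation test has no sex term, and replicate F1, the only female of GF aCD3, had the lowest ratio of its group. GF isotype exceeded SPF isotype by 0.47 (exact permutation, adjusted p = 0.032), and GF aCD3 differed from SPF aCD3 by -1.51 (exact permutation, adjusted p = 0.069). Rps27l exceeded Rps27 in 3 SPF aCD3 libraries, 1 GF aCD3 library and none of the 16 isotype libraries.

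Rpl22l1 and Rpl22, alternative proteins of the large subunit of which Rpl22 is needed for normal T cell development, stood close to each other. Rpl22l1 ran from 158 to 241 TPM in SPF isotype and from 181 to 247 TPM in SPF aCD3, and Rpl22 from 140 to 210 TPM and from 145 to 179 TPM. The log2 ratio rose from 0.13 ± 0.13 (n = 6) to 0.45 ± 0.14 (n = 6) with aCD3 in SPF mice (exact permutation, adjusted p = 0.035), and GF isotype, at 0.40 ± 0.21 (n = 10), exceeded SPF isotype (exact permutation, adjusted p = 0.046). The ranges overlapped in both cases. Neither gene was called by itself with TPM in the SPF comparison.

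Rpl7l1, an assembly factor related to Rpl7, fell against Rpl7 by -0.28 with aCD3 in SPF mice (exact permutation, adjusted p = 0.013) and was higher against it in GF than in SPF mice, by 0.31 with isotype and 0.52 with aCD3 (exact permutation, adjusted p = 0.013 for both). The pairs Rpl36al and Rpl36a, Rpl39l and Rpl39, and Rps4l and Rps4x gave adjusted p-values of 0.113 or more in each comparison (exact permutation). Rpl36al was the higher of its pair, 417 to 599 TPM against 18.5 to 38.7 TPM over all libraries, with a log2 ratio of 4.22 ± 0.20 (n = 6) in SPF isotype. Rpl39l, known from testis, stayed at 0 to 2.14 TPM in all libraries, and Rps4l at 0 to 17.8 TPM. Rps19bp1 ran from 7.93 to 22.7 TPM in SPF isotype and from 6.11 to 19.2 TPM after aCD3, with overlap.

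Other genes of the translation machinery gave a backdrop, from lists chosen with earlier results of these data known. In SPF mice Fau fell, by -0.64 ± 0.09 (limma, adjusted p = 4.85e-06), and Rack1 gave 0.11 ± 0.09. After median-of-ratios scaling the call of Fau was lost, at -0.22 (limma, adjusted p = 0.0559), and Rack1 was called higher, at 0.53 (limma, adjusted p = 0.00187). The list counts that follow compare with 14.2% of all genes higher and 50.7% lower. Of 13 elongation factor and other TOP genes, 2 rose and 4 fell in SPF mice, with a median of 0.01. Eef1g, a subunit of the elongation factor that loads transfer RNA, rose by 0.46 ± 0.13, and Tpt1, the translationally controlled tumour protein, fell by -0.69 ± 0.10. Of 35 initiation factors 9 rose and 14 fell, from Eif3l (0.80 ± 0.11) to the helicase Eif4a2 (-1.28 ± 0.20). Of 13 tested regulators of TOP mRNAs 1 rose, Rps6ka1 (0.34 ± 0.09), and 9 fell, among them Rptor, the mTOR complex scaffold (-1.14 ± 0.20).

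All 6 noncoding hosts of small nucleolar RNAs with a TOP motif fell in SPF mice, the lowest Snhg12 (-1.19 ± 0.24), with a median of -1.02. These values span introns, and reads of nested small RNA genes were subtracted for ribosomal protein members only. The part of such reads in the fall of these hosts, or in genes of the other lists, was not tested. After median-of-ratios scaling, where 30.6% of all genes rose and 29.3% fell, 5 of the 6 fell, with a median of -0.60. Under that scaling 8 of the 13 elongation and TOP genes rose and 1 fell, and 20 of the 35 initiation factors rose and 5 fell. Of the 13 TOP regulators 3 rose and 7 fell there, with a median of -0.20, against -0.57 with TPM. In GF mice the calls were Eif3l higher (0.34 ± 0.10) and Eif3j1 (-0.57 ± 0.15) and Gas5 (-0.43 ± 0.13) lower, against 2.46% of all genes higher and 4.61% lower. All 3 calls were lost with pseudocount 0.1, no filter or the replicate block and in the 25 fits without a single library in which 0% of all genes were called. After median-of-ratios scaling, where 9.73% of all genes were called, Eif3l and Eif3j1 kept their calls and that of Gas5 was lost, at -0.26 (limma, adjusted p = 0.0525). Calls gained there, all higher, were Eif2b1, Eif3b, Eif6, Nap1l1 and Rps6ka1, from 0.31 for Rps6ka1 to 0.49 for Nap1l1. The difference of the aCD3 effects was called for Fau (0.47 ± 0.12), Tpt1 (0.50 ± 0.14), Mtor (0.53 ± 0.15) and Snhg1 (0.84 ± 0.14). After median-of-ratios scaling Mtor (0.35; limma, adjusted p = 0.0226) and Snhg1 (0.59; limma, adjusted p = 0.00782) kept their calls. Fau gave 0.22 (limma, adjusted p = 0.247) and Tpt1 0.25 (limma, adjusted p = 0.117), and both calls were lost. Eif2b5 (-0.58) and Eif3l (-0.71) were called there and not with TPM, against 11.7% of all genes.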

How the data were processed

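The authors deposited TPM per gene, computed with HOMER over RefSeq transcripts of mm10, per the file headers; gene span serves as length in 99.2% of rows. Libraries came from a total RNA kit with single reads of 150 bases, per the labels, although another label names polyA RNA; strand use was not given in the sources used here. Reads were recovered from TPM steps (100% whole within 0.05 read). The 26 columns matching no sample were not used. No 2 libraries were identical.

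Genes with at least 1 TPM in at least 6 libraries were tested with limma (3.58.1, R 4.3.3) on log2(TPM + 1), with group means and a sex term over 28 libraries and Benjamini-Hochberg adjustment at 0.05; low genes are understated. Fits were tried on simulated data in which a small part of the genes changed. That setting cannot show how the fits act under shifts as wide as those seen here. Shared windows came from GENCODE M21. Members and lists were chosen with earlier results of these data known. Named were the 4 highest and 4 lowest members per comparison (mean of at least 5 TPM), the 3 highest per subunit, paralogues, interaction calls and each list's extreme calls; other members were named after their values were seen, and some genes are not reported here. Alternatives covered scaling, pseudocount, filter, weights, voom, sex, block, number block and leaving out each library; subtracting nested reads and the 2 germ-free blocks of sample numbers taken alone were chosen after seeing the data.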

Additional observations from a re-analysis of the deposited data

Results flagged for a closer look

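The aCD3 effect differed between GF and SPF mice in 7 members by a direct test of the difference (limma interaction, adjusted p under 0.05). The differences, GF minus SPF, were 1.16 for Rps13, 0.84 for Rps27a, 0.70 for Rps12, 0.66 for Rpl38, 0.56 for Rpl5, 0.51 for Rpl31 and -0.93 for Rps27l. Of all tested genes, 2.44% were called in the positive and 1.04% in the negative direction. Over the 28 fits that left out a library, the call was lost in 22 for Rpl38, 17 each for Rps27a and Rpl5, 16 for Rps12, 13 for Rpl31 and 1 each, without GF aCD3 replicate F1, for Rps13 and Rps27l.

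Of 156 sets of values, each a group's libraries for a named gene, ratio or subunit measure, 7 held a library far from the rest, where chance gives about 1 in 20, or 7.8. In SPF isotype replicate F3, Rpl17 was at 42.9 TPM (others 69.7 to 80.8), Rpl4 at 1207 TPM (others 1398 to 1479) and Rps15 at 2374 TPM (others 1575 to 1861), and Rn45s took 22.9% of its TPM, the highest share of the group. Rpl10a was at 13.6 TPM in SPF isotype replicate F2 (others 27.8 to 32.9), Rpl4 at 1976 TPM in SPF aCD3 replicate F1 (others 1525 to 1630), Rplp1 at 3841 TPM in GF isotype replicate F2 (others 2965 to 3328) and Rps13 at 39.8 TPM in GF isotype replicate F1 (others 55.9 to 72.1).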

How the results depend on the processing

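Counts of called members moved by over 1.5 times as follows, with the share of all tested genes called in the same fit in parentheses. In SPF mice the 51 calls became 22 with an absolute log2 fold change of at least 0.5 (45%; 25.3% of members), and ran from 50 to 53 when a library was left out (61% to 66.2%). In GF mice the 1 call became 0 with scaling to the median member, pseudocount 0.1, no filter, the replicate block or only the groups compared (0% in each) or either GF number block alone (0.00821%), 2 with median-of-ratios scaling (9.73%) or voom (7.63%), 3 with a filter at 5 TPM (12.3%), 4 without Rn45s and histone genes (9.41%), 7 with quantile normalization (9.83%), 8 with the number block as a covariate (18.2%), 9 without the sex term (20.3%) and 13 with array weights (29.8%), and 0 to 18 on leaving out a library (0% to 34.6%). The 5 calls of GF against SPF isotype became 2 with median-of-ratios scaling (1.63%), 0 with scaling to the median member (0.977%), 1 with quantile normalization (1.44%) or the fold threshold (1.57%), 3 with no filter (4.45%), voom (1.87%) or the replicate block (5.4%) and 8 with array weights (15.6%), and 1 to 6 on leaving out a library (2.67% to 9.33%). The 39 calls of GF against SPF aCD3 became 24 without Rn45s and histone genes (40.1%) or with array weights (30.2%), 16 with the fold threshold (31.7%), and 30 to 44 on leaving out a library (40.1% to 59.4%). The 7 differences of effect became 4 with median-of-ratios scaling (11.7%), pseudocount 5 (2.24%) or without Rn45s and histone genes (7.53%), 3 with scaling to the median member (1.8%) or no filter (1.13%), 2 with the replicate block (1.33%) and 1 with array weights (1.31%), and 0 to 27 on leaving out a library (0.263% to 26.2%). The cause was not tested in any of these. At 0 calls in GF mice, 3214 of the 12182 genes had an unadjusted p under 0.05 in the fit scaled to the median member.

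Large minus small subunit became -1.09, -1.23, -0.99 and -1.14 per coding length, for isotype and then aCD3 in SPF and then in GF mice, and -0.53 in SPF aCD3 with means, against -0.62 in SPF isotype, so that the order of these groups turned. The Rpl39l to Rpl39 difference turned from -0.09 to 0.0039 in GF mice and became -0.42 (exact permutation, adjusted p = 0.041) in GF against SPF aCD3 at pseudocount 5. Signs turned for Rpl41 in SPF (-0.10) and Rpl4 in GF against SPF aCD3 (0.014) under quantile normalization, and for Rps3 in GF against SPF isotype (0.026) with nested reads subtracted. Same-named replicates did not vary together: of 32 pairs, 5 correlated above 0.1 (range -0.21 to 0.20), so the replicate block reflects a shared name only. Low levels limit Rpl39l, at most 2.14 TPM, and Rps4l, at most 17.8 TPM.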
